A study of Homo sapiens with 6 samples.

Results

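The keratin genes are the rows of the deposited RNA sequencing table whose symbol begins with KRT and a digit: 50 of 6018 listed genes. The symbol alone decides membership, but this group and its classes were chosen with earlier results of these data known. The 50 rows comprise 15 protein-coding keratins, 16 pseudogene copies of KRT8, 14 copies of KRT18 and 5 other keratin pseudogenes. The series holds 3 libraries of C4-2B, an established castration-resistant prostate cancer line derived from LNCaP, here labelled C42B and passage 0, and 3 libraries of C42-B-Abi, a subline of it labelled passage 15 to 18. The subline had been grown in abiraterone rising from 1 to 20 µM for at least 6 months and was then held in 5 µM, while parental cells went through passage with 1% DMSO. Abiraterone blocks CYP17A1, an enzyme of androgen synthesis. Both lines grew in medium containing 10% FBS, and the extraction protocol names 10 µM abiraterone without making clear whether it was given to both. Nothing says that libraries of one line came from separate cultures, so the errors may measure technical spread.

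The values are the authors' own DESeq2 comparison of 2 conditions, named C and V in the table's header as control and vehicle. The header does not tie either letter to a cell line, and the letter V also stands in the titles of the parental libraries, so directions are given by letter only. A positive log2 fold change means higher in C. No column gives single libraries, so their depth is unknown and their overlap between conditions cannot be seen. Errors are the authors' standard errors on the log2 scale. A gene was called at a listed adjusted p under 0.05. Every listed gene has p under 0.05 and a log2 fold change no nearer to 0 than 1.20 in size, so a gene that is not listed may have missed either limit. Levels per condition were derived as the 2 means that average to the listed mean and differ by the listed fold change, taking both conditions as equally large. These derived levels carry no error. In bulk RNA, a gene that is lower because fewer cells express it and one that is lower because each cell holds less of its RNA cannot be told apart.

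Keratins are the intermediate filament proteins of epithelial cells. A filament forms from a type I and a type II keratin in pairs, and the type made marks the kind of epithelium. In the prostate, luminal secretory cells carry KRT8 and KRT18, and basal cells carry KRT5, KRT14 and KRT15. KRT6A, KRT6B, KRT6C, KRT16 and KRT17 are known from skin, where they come on in wounded and hyperproliferative epidermis. Messenger RNA of KRT8 and KRT18 has also been copied back into the genome many times, leaving processed pseudogenes without introns.

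Of the 15 listed protein-coding keratins, 13 were higher in V and 2, KRT19 and KRT73, were higher in C, and all 15 were called. Among all listed genes 89.4% were called, 46.0% on the C side and 43.4% on the V side. Among the 2954 listed protein-coding genes 92.6% were called, 61.0% on the V side and 31.6% on the C side. The median log2 fold change of the listed coding keratins in the authors' deposited table was -6.07, beside -1.55 for all listed protein-coding genes. Both medians leave out changes under 1.20 in size, which are not listed. In 8 of the 15 keratins the lower derived level was under 1, so the value of -6.07 rests on folds over levels near 0. Counts fall with stricter limits: 6 of the 15, 5 of them higher in V, have a mean of at least 100 normalised counts, and 9, of them 8 higher in V, have at least 90% of their 50-base sequence windows to themselves among annotated transcripts. GENCODE release 29 (GRCh38) annotates 55 coding keratins, so 40 were not listed, KRT18, KRT14, KRT20, KRT1 and KRT13 among them.

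**Figure D1:**
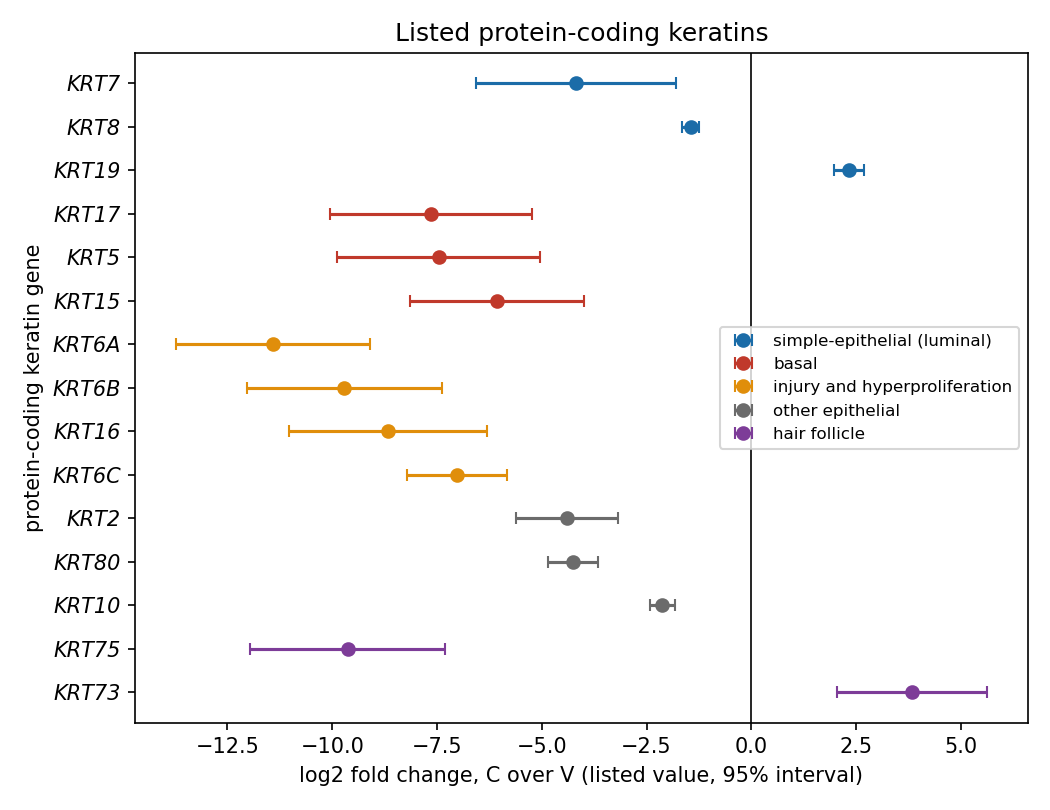
Log2 fold change of C over V for each of the 15 listed protein-coding keratins, as given in the authors' deposited table, with its 95% interval and coloured by keratin class. KRT19 and KRT73 lie to the right of 0 and the other 13 to the left, KRT6A farthest at -11.42.

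The class of simple-epithelial keratins gave changes in both directions. It holds KRT7, KRT19 and KRT20 besides the prostate luminal keratins KRT8 and KRT18. KRT8, the type II keratin of simple epithelia, had a mean of 2540 normalised counts, with derived levels of 1364 in C and 3715 in V. Its log2 fold change in the authors' deposited table was -1.45 ± 0.10 (adjusted p = 6.41e-43). KRT19, a small type I keratin of simple epithelia, ran the other way, with derived levels of 1297 normalised counts in C and 257 in V. The authors' deposited table gives it a log2 fold change of 2.33 ± 0.18 (adjusted p = 5.83e-37). The 95% intervals of the log2 fold changes did not overlap, -1.65 to -1.24 for KRT8 and 1.98 to 2.69 for KRT19. KRT7, the type II keratin of ductal epithelia, had derived levels of 4.54 in C and 82.9 in V, with a log2 fold change of -4.19 ± 1.22 in the authors' deposited table (adjusted p = 0.00183). The 95% interval of KRT7 is wide, from -6.57 to -1.81. KRT18, the usual partner of KRT8, and KRT20 were not listed. In GENCODE the KRT8 gene (chr12:52897187-52949954, minus strand) runs into the start of KRT18 (chr12:52948871-52952901, plus strand), and 5.94% of the 50-base windows of KRT8 transcripts also occur in KRT18 transcripts. Whether reads were counted by strand is not given in the sources used here.

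The 4 keratins classed here under injury and hyperproliferation, without KRT17, were all listed, and all were higher in V. KRT6A had derived levels of 0.163 normalised counts in C and 446 in V, KRT6B 0.318 and 267, and KRT6C 1.76 and 230. KRT16, a type I partner of the KRT6 proteins, had 0.163 in C and 66.6 in V. Transcripts of all 4 genes were thus near 0 in C and clearly present in V. Log2 fold changes in the authors' deposited table were -11.42 ± 1.18 for KRT6A, -9.71 ± 1.19 for KRT6B, -8.68 ± 1.20 for KRT16 and -7.03 ± 0.61 for KRT6C. KRT6C has the smallest of these errors and is the one of the 4 with a derived C level above 1. The 95% intervals of neighbours in that order overlapped, but those of KRT6A (-13.73 to -9.10) and KRT6C (-8.22 to -5.84) did not. That gap cannot separate the 2 genes, because the C level of KRT6A is near 0 and the intervals leave out how shared reads were divided.

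The 3 KRT6 genes are near-identical, so the way their reads were divided is uncertain. Their coding sequences have 1695 bases each, and KRT6A is 97.5% identical to KRT6B and 97.9% identical to KRT6C, with 98.5% between KRT6B and KRT6C. Reads were 50 bases long. Of 1644 coding windows of that length aligned without gaps, 581 (35.3%) were identical in all 3 genes. The stretch below is the coding window with the most differences from KRT6A, bases 673 to 722 counted from the start codon, from GENCODE release 29 transcripts (GRCh38), and capitals mark bases that differ from KRT6A. The genes lie on the minus strand at chr12:52487174-52493257 (KRT6A), chr12:52446651-52452126 (KRT6B) and chr12:52468516-52473785 (KRT6C).
KRT6A: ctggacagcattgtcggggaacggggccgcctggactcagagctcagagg
KRT6B: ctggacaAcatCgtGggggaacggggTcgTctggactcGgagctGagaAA
KRT6C: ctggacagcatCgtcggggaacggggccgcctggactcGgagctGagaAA
KRT6B differs from KRT6A at 9 of these bases and KRT6C at 5. Of all annotated 50-base windows, 67.9% of those of KRT6A, 52.9% of KRT6B and 55.6% of KRT6C occur in no other gene's transcripts. The corresponding share was 83.5% for KRT16, whose closest sharing is with the pseudogene KRT16P3.

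Of the 4 keratins classed here as basal, KRT5, KRT15 and KRT17 were listed, each higher in V at low levels, and KRT14 was not listed. KRT17, a wound keratin as well, was counted in this class and not under injury. KRT5, the type II keratin of basal cells, had derived levels of 0.162 normalised counts in C and 28.6 in V (log2 fold change -7.46 ± 1.24, authors' deposited table, adjusted p = 9.85e-09). KRT15, a type I keratin of basal layers, had 0.679 in C and 45.5 in V (log2 fold change -6.07 ± 1.06, authors' deposited table, adjusted p = 6.3e-08). KRT17, found in basal and appendage cells and in wounds, had 0.162 in C and 32.5 in V (log2 fold change -7.65 ± 1.23, authors' deposited table, adjusted p = 3.61e-09). Per kb of exon, the derived V levels were 6.65 for KRT5, 6.43 for KRT15 and 10.4 for KRT17. The union exon lengths behind these values differ, at 4292, 7069 and 3130 bases in that order. Summed within each class, the 3 listed basal keratins, KRT17 included, came to 1.00 normalised counts in C and 107 in V. The 4 injury keratins came to 2.41 and 1010, and the 3 listed simple-epithelial ones to 2666 and 4055.

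The lowest derived levels took nearly one value. KRT5, KRT6A, KRT16, KRT17 and KRT75 had derived C levels between 0.162 and 0.163 normalised counts although their means ran from 14.4 to 223. Among all listed genes, 313 had a derived C level under 0.2, the lowest being 0.152. For these keratins the order of the fold changes is thus the order of the levels in V, and the listed folds are estimates that set no bound.

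Keratins of other epithelia and of hair made up the rest. KRT10, the type I keratin of differentiating epidermis, had derived levels of 65.0 normalised counts in C and 284 in V, and in the authors' deposited table its log2 fold change was -2.13 ± 0.15 (adjusted p = 1.14e-42). KRT2, a type II keratin of the upper epidermis, had 2.07 in C and 43.6 in V (log2 fold change -4.39 ± 0.62, authors' deposited table). KRT80, a widely expressed type II keratin, had 8.59 in C and 163 in V (log2 fold change -4.25 ± 0.31, authors' deposited table). KRT10 and KRT80 rank among the better determined members, with over 99% of their 50-base windows unique (99.6% each). KRT1, the usual partner of KRT10, was not listed. KRT75, a keratin of the hair follicle, had 0.163 in C and 130 in V (log2 fold change -9.64 ± 1.19, authors' deposited table). KRT73, of the hair root sheath, was the single one of these higher in C, at 8.95 in C and 0.626 in V (log2 fold change 3.84 ± 0.91, authors' deposited table, adjusted p = 0.000101). Of the windows of KRT73, 31.1% also occur in its antisense gene KRT73-AS1. None of the other 24 hair keratins was listed.

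Scaled to the union length of all annotated exons, the order of the derived levels of the protein-coding keratins differed between the conditions. That length varies widely, with 6881 bases for KRT8 against 2336 for KRT19, so the places of genes depend on it. Unscaled, KRT8 and KRT19 were close in C, at 1364 and 1297 normalised counts. Among coding keratins in V, KRT8 stood first at 540 normalised counts per kb of exon, followed by KRT6A at 152, KRT10 at 133, KRT6B at 117 and KRT19 at 110. Among them in C, KRT19 stood first at 555 per kb, then KRT8 at 198 and KRT10 at 30.3. Every other listed coding keratin was under 4 per kb in C, KRT73 the highest of them at 3.38. KRT6A was 0.0557 per kb in C. No error is available for these levels, so places close together, such as KRT6B and KRT19 in V, cannot be ranked.

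**Figure D2:**
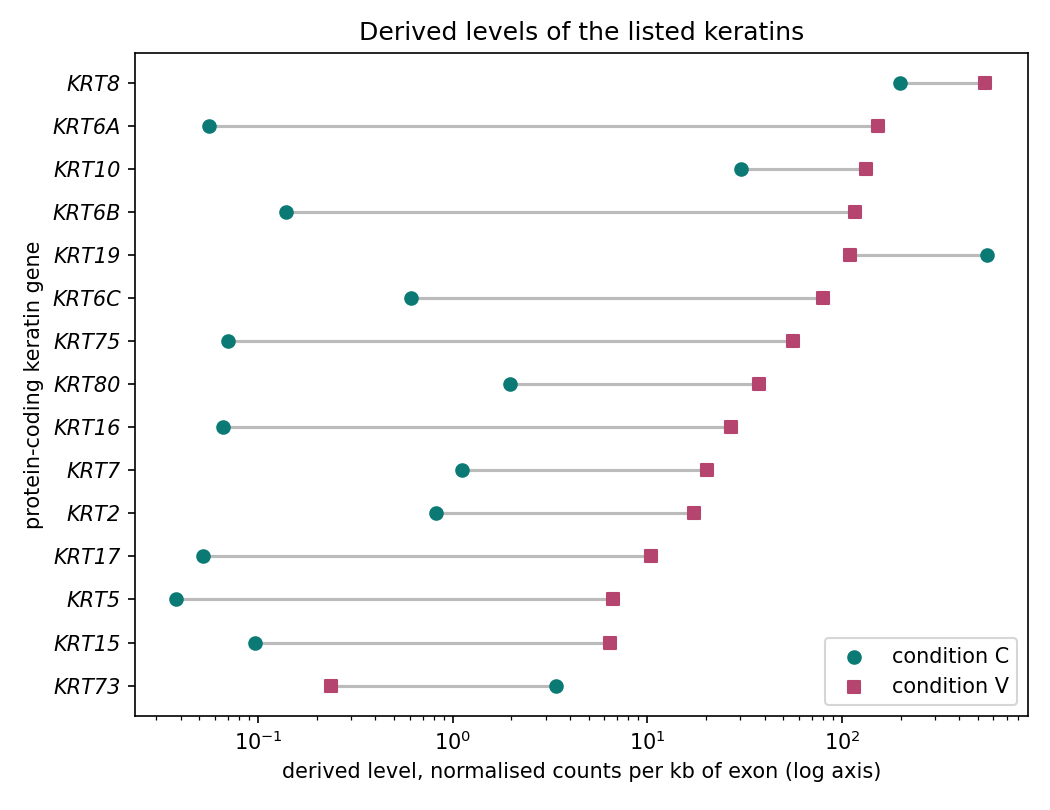
Derived level of each listed protein-coding keratin in condition C (circles) and condition V (squares), in normalised counts per kb of exon on a log axis, ordered by the level in V. KRT8, KRT19 and KRT10 are above 30 in both conditions, whereas KRT6A spans 0.0557 to 152.

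Coding keratins form a cluster of 27 on chromosome 12, which holds the 26 type II genes and the type I gene KRT18, and one of 28 on chromosome 17, which holds the other type I genes and KRT222. Of the genes on chromosome 12, 10 were listed, 9 higher in V, and of those on chromosome 17, 5 were listed, 4 higher in V. For comparison, 61.0% of all listed protein-coding genes were called on the V side. On chromosome 12, KRT75, KRT6B, KRT6C, KRT6A and KRT5 stand next to one another with no other coding keratin between them, at 52424070 to 52520687, a span of 96618 bases in GENCODE release 29, and all 5 were higher in V. Since KRT6A, KRT6B and KRT6C are near-identical, with reads divided in an uncertain way, their rows among these 5 are not separate observations. The 3 coding keratins that follow, KRT71, KRT74 and KRT72, were not listed, and the next, KRT73, was higher in C. On chromosome 17, KRT15 and KRT19 are separated by 1087 bases and differed in direction, -6.07 ± 1.06 and 2.33 ± 0.18 in the authors' deposited table. KRT16 and KRT17, 3541 bases apart, were both higher in V.

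**Figure D3:**
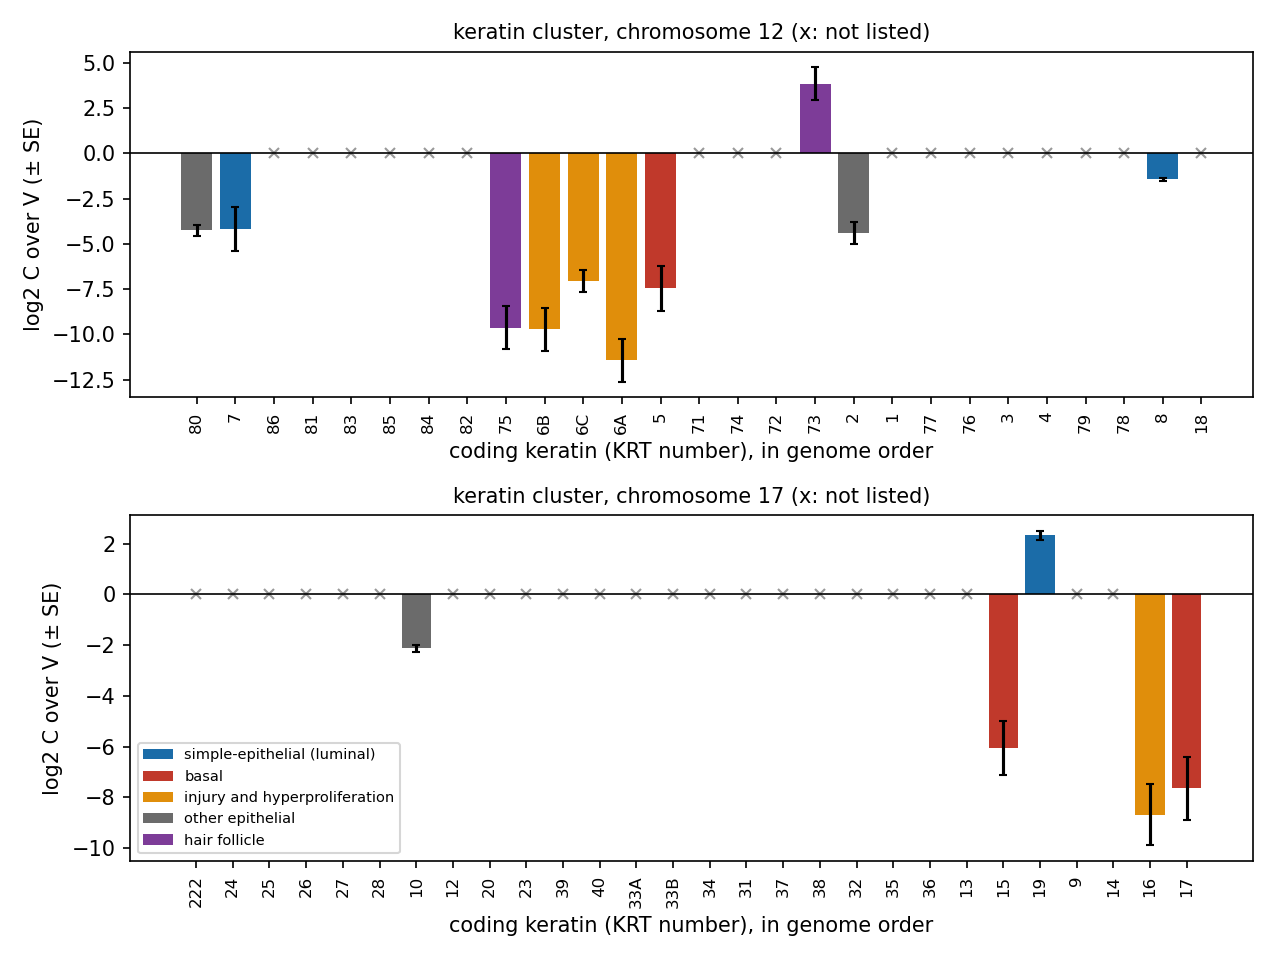
Log2 fold change of C over V (± SE, from the authors' deposited table) for the coding keratins in genome order along the clusters of chromosome 12 (top) and chromosome 17 (bottom), with crosses for genes not listed. KRT75 to KRT5 form a run of 5 bars below 0, and KRT19 stands above 0 next to KRT15 below it.

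Pseudogene copies of KRT18 were called in both directions. All 14 listed copies passed, 6 being higher in C and 8 in V. Among the 1491 listed processed pseudogenes 91.7% were called, 64.9% on the C side and 26.8% on the V side. The 14 are a selection from 67 annotated copies. The 4 copies with the highest means were KRT18P38 at 111 normalised counts, KRT18P25 at 80.5, KRT18P31 at 66.1 and KRT18P23 at 51.7. KRT18P38 was higher in V, with derived levels of 25.1 in C and 198 in V (log2 fold change -2.98 ± 0.22, authors' deposited table, adjusted p = 1.26e-38). The other 3 were higher in C. KRT18P25 had 130 in C and 30.8 in V (log2 fold change 2.08 ± 0.22, authors' deposited table, adjusted p = 2.14e-19). KRT18P31 had 114 in C and 18.6 in V (log2 fold change 2.61 ± 0.24, authors' deposited table, adjusted p = 1.16e-25). KRT18P23 had 89.1 in C and 14.4 in V (log2 fold change 2.63 ± 0.26, authors' deposited table, adjusted p = 1.13e-23). Copies of the same message therefore differed in sign with errors far smaller than the gap between them, while the parent KRT18 itself was not listed.

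The copies lie on plus strands in GENCODE release 29 (GRCh38), at chr6:19612755-19614036 (KRT18P38), chr4:40020240-40021517 (KRT18P25), chr5:36885206-36886497 (KRT18P31) and chr22:44566965-44568247 (KRT18P23). Over their aligned length they are 92.0%, 91.9%, 90.6% and 92.3% identical to the KRT18 coding sequence, in that order. Of their 50-base windows 89.1%, 90.9%, 97.6% and 90.8% occur in no other annotated gene's transcripts, and 3.65%, 2.44%, 0.885% and 3.73% occur in KRT18.

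The largest fold changes among KRT18 copies belonged to rows with few reads. KRT18P3 (-6.75 ± 1.27) and KRT18P65 (-6.00 ± 1.27) were farthest toward V in the authors' deposited table, and reached derived levels of 17.7 and 20.4 normalised counts in V. KRT18P51 (5.51 ± 0.95) and KRT18P7 (4.85 ± 1.63) were farthest toward C in the authors' deposited table, with derived C levels of 24.1 and 3.63. In 7 of the 14 rows the lower derived level was under 1. Summed over the 14, derived levels were 423 normalised counts in C and 481 in V, so the copies higher in C and those higher in V nearly balanced.

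KRT8 copies were likewise split. Of the 16 listed among 50 annotated, 15 passed, 6 on the C side and 9 on the V side, where 91.7% of all listed processed pseudogenes were called (64.9% on the C side, 26.8% on the V side). KRT8P1 (adjusted p = 0.0545 in the authors' deposited table) was not called. Of the 6 on the C side, 3 have a log2 fold change of at least 2. KRT8P33 held 46.0% of the summed mean of the listed copies, at 207 normalised counts. Its derived levels were 95.2 in C and 319 in V, and its log2 fold change in the authors' deposited table was -1.74 ± 0.14, beside -1.45 ± 0.10 for KRT8. KRT8P39 had 21.8 in C and 72.5 in V (log2 fold change -1.74 ± 0.30, authors' deposited table). KRT8P30 had 0.380 in C and 59.4 in V (log2 fold change -7.29 ± 1.22, authors' deposited table). KRT8P31 ran the other way, with 43.8 in C and 9.38 in V (log2 fold change 2.22 ± 0.35, authors' deposited table, adjusted p = 1.62e-09). Called copies farthest from 0 were KRT8P2 (-7.35 ± 1.31) and KRT8P30 toward V, and KRT8P25 (5.00 ± 1.48) and KRT8P14 (3.44 ± 0.79) toward C, all in the authors' deposited table. The 16 copies summed to 449 normalised counts, which is 17.7% of the KRT8 mean. Their summed derived levels were 275 in C and 623 in V.

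The 4 KRT8 copies with the highest means are set beside KRT8 over coding bases 874 to 923, the first 50 at which all align without gaps, with capitals for bases that differ from KRT8 (GENCODE release 29 transcripts, GRCh38). KRT8P39 (chr12:68705634-68707066) lies on the plus strand, and KRT8P33 (chr5:123400922-123402344), KRT8P30 (chr2:218953401-218954050) and KRT8P31 (chr5:60743563-60744970) on minus strands.
KRT8: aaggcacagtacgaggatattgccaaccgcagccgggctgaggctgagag
KRT8P33: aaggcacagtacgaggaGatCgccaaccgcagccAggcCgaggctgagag
KRT8P39: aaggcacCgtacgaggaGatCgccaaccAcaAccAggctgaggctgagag
KRT8P30: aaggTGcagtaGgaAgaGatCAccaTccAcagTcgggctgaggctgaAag
KRT8P31: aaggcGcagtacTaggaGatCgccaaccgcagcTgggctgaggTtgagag
KRT8P33, the copy with the highest mean, differs at 4 of these bases, KRT8P39 and KRT8P31 at 6 each and KRT8P30 at 11. KRT8P33 is also the listed copy closest to its parent, with 95.9% identity to the KRT8 coding sequence and 9.32% of its 50-base windows found in KRT8. Among listed KRT8 copies, identity to the parent ran from 88.6% to 95.9%. What part of the reads assigned to a copy came from the parent message was not tested, since no reads are used here.

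**Figure D4:**
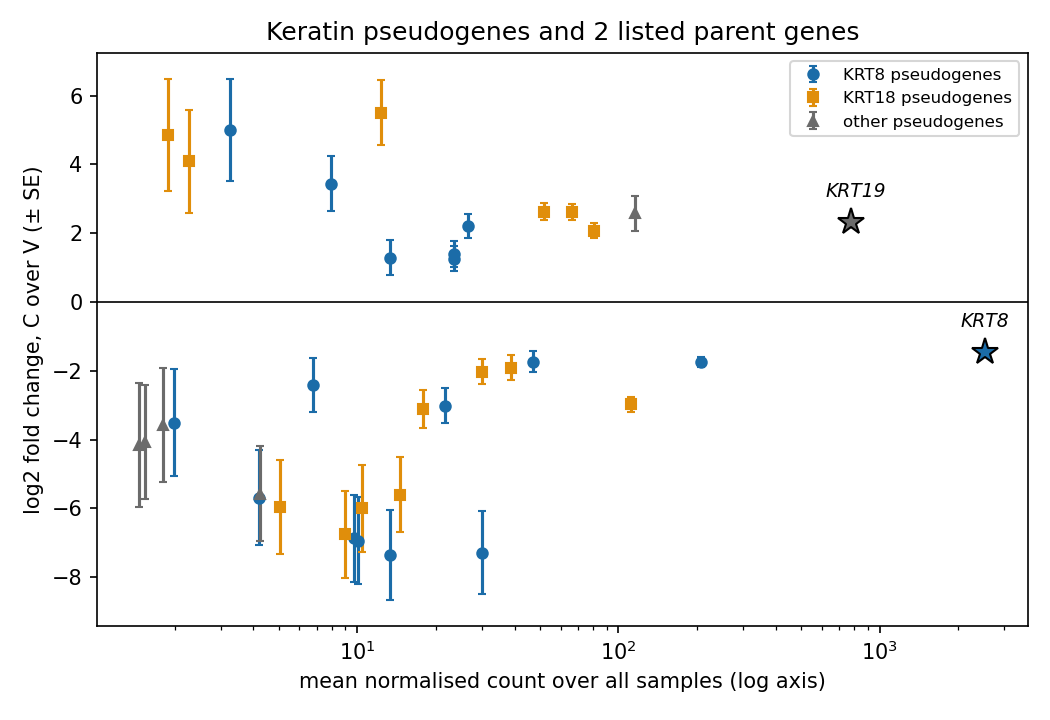
Log2 fold change of C over V (± SE) against the mean normalised count (log axis) for the 35 listed keratin pseudogenes, with the parents KRT8 and KRT19 as stars, all from the authors' deposited table. Copies of KRT8 and of KRT18 lie on both sides of 0, and KRT8P33 has the highest mean at 207. The longest error bars belong to points under a mean of 10, but some points above it also have long ones. Among these are KRT8P2 (mean 13.3, error 1.31) and KRT8P30 (mean 29.9, error 1.22).

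Identity to the parent was similar in copies of either direction. Median identity to the KRT18 coding sequence was 92.1% for both the 6 copies higher in C and the 8 higher in V. For KRT8 copies it was 92.4% in the 6 higher in C and 92.2% in the 10 listed as higher in V. By the median, listed copies shared more with the parent than annotated copies that were not listed. The median share of 50-base windows also found in the parent was 3.52% in the 14 listed KRT18 copies and 0.0814% in the 53 not listed, and 1.70% and 0.209% in the 16 and 34 KRT8 copies. These medians describe annotated sequence, and no test was made over copies, which share their origin. The ranges overlapped, and the highest shares were in copies not listed. They reached 28.2% for KRT8 and 12.2% for KRT18, against 9.32% and 5.77% in listed copies.

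**Figure D5:**
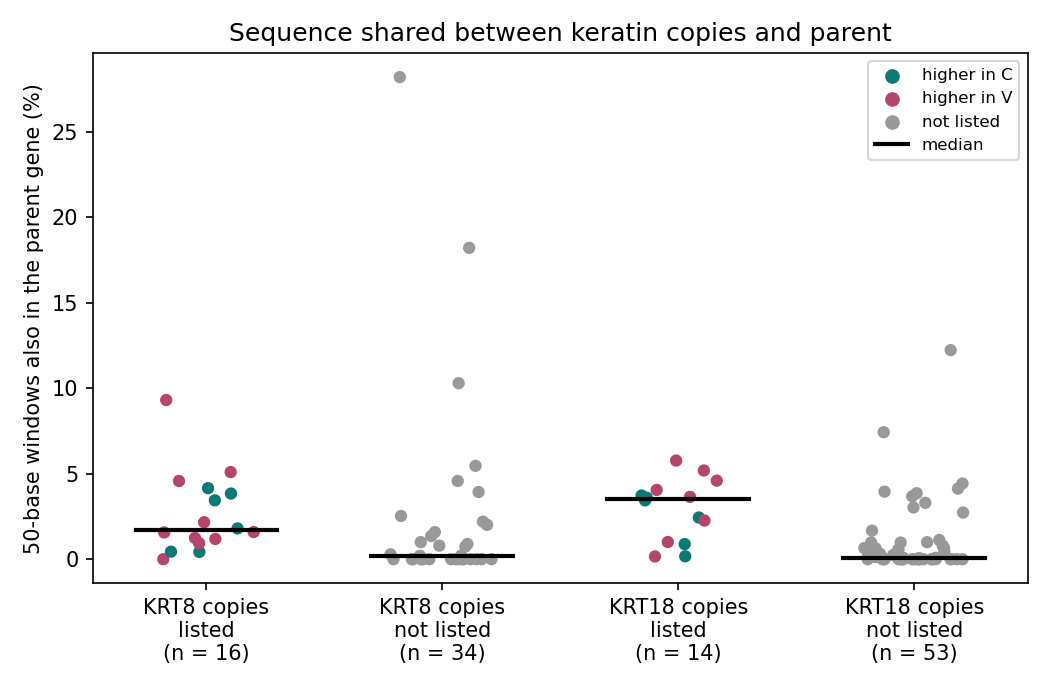
Share of each copy's 50-base windows that also occur in transcripts of its parent gene, for KRT8 and KRT18 copies that were listed or not, with the median as a bar and points coloured by direction. Medians are 1.70% and 0.209% for KRT8 copies and 3.52% and 0.0814% for KRT18 copies, and points of both directions are mixed.

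The position of a copy inside another gene was a further feature the names do not show. Of the 35 listed keratin pseudogenes, 20 overlapped no other annotated gene and 8 overlapped a protein-coding gene. KRT8P33, KRT8P39, KRT18P31 and KRT8P48 lie on the same strand as the genes that hold them, CEP120, NUP107, NIPBL and PPP2R2B. Of these 4 host genes only PPP2R2B was listed. PPP2R2B, which encodes a phosphatase subunit, was higher in C at 4.90 ± 1.36, and KRT8P48 within it also, at 1.29 ± 0.52, both in the authors' deposited table. KRT8P47 shares 99.2% of its 50-base windows with the overlapping noncoding gene AL139220.2 on the opposite strand, so its reads depend on the use of strand. Its log2 fold change in the authors' deposited table was -6.87 ± 1.27, beside -1.57 ± 0.77 (adjusted p = 0.089) for AL139220.2.

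The 5 remaining pseudogenes are copies of other keratins. KRT19P1, a processed copy of KRT19 on chromosome 6, had derived levels of 198 normalised counts in C and 33.3 in V. It was higher in C like its parent, at 2.57 ± 0.51 in the authors' deposited table (adjusted p = 1.8e-06) beside 2.33 ± 0.18 for KRT19, and its mean was 14.9% of the parent's. KRT19P1 is 92.5% identical to the KRT19 coding sequence, and 97.9% of its windows are unique. KRT16P1 (-4.07 ± 1.67), KRT16P3 (-4.17 ± 1.80) and KRT89P (-5.58 ± 1.38) were called on the V side in the authors' deposited table, reaching only 2.91, 2.77 and 8.29 normalised counts there. KRT17P3 (adjusted p = 0.0685 in the authors' deposited table) was not called. KRT16P1 and KRT16P3 share 67.2% and 70.5% of their windows with each other, so they hardly count as separate rows.

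Of the companion genes of keratin filaments, those listed for hemidesmosome, cornified envelope and squamous regulation were on the V side, where 61.0% of all listed protein-coding genes were also called (92.6% on either side). The counts are small and were not tested against that share. Hemidesmosomes anchor keratin to the basement membrane: of 8 genes, 4 were listed and called, each of them higher in V. As given in the authors' deposited table they included LAMB3 (-5.84 ± 0.37), a laminin chain, the integrin chain ITGB4 (-2.27 ± 0.21) and the transmembrane collagen COL17A1 (-5.60 ± 1.09). Of 15 cornified envelope genes, which crosslink into the surface of squamous cells or accompany it, 5 were listed and called, each of them higher in V. These were IVL (-7.06 ± 1.23), SPRR1A (-8.54 ± 1.21), TGM1 (-2.35 ± 0.35), S100A8 (-8.09 ± 1.25) and S100A9 (-7.47 ± 1.24) in the authors' deposited table. Derived V levels of these 5 ran from 42.6 to 60.4 normalised counts, against 0.163 to 11.4 in C. Of 11 basal and squamous regulators, KLF4 (-5.54 ± 0.13) and TFAP2A (-1.95 ± 0.25) were called on the V side in the authors' deposited table, and TP63 was not listed.

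Desmosome genes, whose plaques hold the keratin network at cell contacts, were mostly not listed: 2 of 18 were, PERP (-2.12 ± 0.09) on the V side and DSC3 (2.35 ± 0.84) on the C side of the authors' deposited table. Of 7 genes for keratin binding and turnover, 2 were called on the V side of the authors' deposited table, KLHL24 (-1.79 ± 0.11), a ubiquitin ligase adaptor that acts on keratin, and SFN (-3.43 ± 0.46), a 14-3-3 protein of epithelia. Other intermediate filaments went both ways. Of 15 such genes 6 were listed and 5 called. The counts in this paragraph stand beside 92.6% of all listed protein-coding genes called, 61.0% on the V side and 31.6% on the C side. In the authors' deposited table NES (3.59 ± 0.30), LMNB1 (1.70 ± 0.08) and GFAP (7.19 ± 2.41) were higher in C, and SYNM (-2.93 ± 0.14) and BFSP1 (-3.16 ± 1.16) higher in V. NEFH (adjusted p = 0.0885 in the authors' deposited table) was listed and not called, and VIM was not listed.

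Markers of cell types give the setting for these values. Of 7 prostate luminal markers, KRT8, KLK3 and KLK2 were listed; KLK3, which encodes prostate-specific antigen, had derived levels of 15170 normalised counts in C and 3363 in V, so it was present in both. KLK2 was also higher in C, at 2798 against 466 in V, whereas KRT8 was higher in V. KRT18 and HOXB13 were among those not listed. Of 4 basal markers, KRT5 and KRT15 were listed, and TP63 and KRT14 were not. Markers of other cells also lay higher in V: 4 of 6 leukocyte markers with derived V levels of 3.67 to 35.7 and C levels of 0.164 to 0.907, 1 of 6 fibroblast markers, COL1A1, at 294 in V and 72.4 in C, and 1 of 3 endothelial markers, PECAM1, at 14.9 in V and 0.165 in C. Summed over the listed leukocyte markers, the levels were 80.8 in V and 1.63 in C. Of all listed protein-coding genes, 61.0% were called on the V side. CD3E, COL1A2, COL3A1, DCN, LUM, PDGFRA, CDH5 and VWF were among those not listed. Whether such cells were present was not tested, nor was their part in the basal keratin, injury keratin and cornified envelope results, S100A8 and S100A9 included.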

How the data were processed

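One table was used, the authors' DESeq2 result for conditions C and V, with no column per library; 6 libraries are labelled, 3 per line. Per the file headers, its mean of normalised counts is a signal value over all samples, its log2 fold change is a maximum likelihood estimate, its standard error and Wald statistic are score columns, and its p-value and Benjamini-Hochberg adjusted p-value come from the authors' Wald test. The submitters' processing notes name FastQC and Cufflinks 2.2.1. No source used here gives the aligner, the counting or the build. The protocol names both TruSeq V2 and a stranded total RNA kit.

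Members, lists and settings were chosen with earlier results of these data known. No test was computed here; calls are the authors' adjusted p under 0.05, and an adjusted p of 0 beside a p above 0 (4 genes) was read as not given. All 50 member identifiers matched GENCODE release 29 (GRCh38), which gave types, positions, union exon lengths and transcripts. Every 50-base window of annotated keratin transcripts was searched on both strands in all annotated transcripts; introns and unannotated sequence were not searched. Pseudogenes were aligned to parent coding sequences with Biopython 1.88 (local, match 2, mismatch -3, gap opening -5, extension -2), checked on simulated sequences. The naming rule took every listed coding keratin, the 4 KRT8 and 4 KRT18 copies with the highest means and the 2 called copies farthest out per direction, and called members of companion lists, of which some are not reported here. KRT8P1, KRT8P48, KRT8P47, PPP2R2B, AL139220.2, KLK3, NEFH and the 5 other pseudogenes were named after their values were seen. Intervals are the listed fold change ± 1.96 standard errors (95%).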

Additional observations from a re-analysis of the deposited data

How the results depend on the processing

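Of the 15 called protein-coding keratins, 15 passed an adjusted p under 0.01 and 15 had a 95% interval wholly beyond a log2 fold change of 1 in size. With a mean of at least 100 normalised counts, 6 of the protein-coding keratins were called (1 higher in C, 5 higher in V), 1 of the KRT18 copies and 1 of the KRT8 copies, both higher in V. Requiring a derived lower level of at least 1, a setting chosen after seeing the data, left 7 protein-coding keratins (1 higher in C, 6 higher in V), 7 KRT18 copies (3 and 4) and 9 KRT8 copies (5 and 4). Requiring at least 90% unique 50-base windows, also chosen after seeing the data, left 9 protein-coding keratins (1 and 8). These settings only remove genes, so the smaller counts follow from their construction. Under the other settings the totals stayed within 1.5 times the reported ones, but some counts by direction did not. KRT8 copies higher in C went from 6 to 3 with an absolute log2 fold change of 2 or more and also with a 95% interval beyond 1, KRT18 copies higher in V from 8 to 5 with at least 90% unique windows, and protein-coding keratins higher in C from 2 to 1 with a mean of at least 10. KRT18 and KRT8 copies with a mean of at least 10 numbered 10 each, divided 4 and 6 between C and V. No paired analysis was possible because the table has no column per library; for the same reason leaving out each replicate in turn was not run, and other normalisations could not be tried.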
